A study of Mus musculus with 12 samples.

Results

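The effect of losing a single Chd8 allele on the embryonic mouse neocortex was measured at embryonic day 12.5 (E12.5) in 6 RNA-seq libraries out of 12 in the series. All E12.5 libraries were used, 3 from Chd8+/+ cortex and 3 from Chd8+/- cortex, and the 2 sequencing runs of each library were summed. The mutant allele lacks the loxP-flanked exon 3 of Chd8, removed in the germline with a β-actin Cre driver, so that it is null in every tissue. Both genotypes were on the C57Bl/6J background, received no treatment and carried no other allele. Embryos came from crosses of Chd8+/- with C57BL/6J mice, and both hemispheres of the cortex were dissected. Clones of embryonic stem cells were injected to found the line, and which clone gave rise to it is not stated in the sources used here. The labels do not say whether each library is a separate embryo or litter, so p-values measure only the spread between these libraries. The 6 libraries of the same comparison at postnatal day 5 (P5), from a single hemisphere each, were used as a second set that shares no sample with E12.5.

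CHD8 is an ATP-dependent chromatin remodeler of the CHD family that binds near the promoters of many active genes, and loss of an allele of CHD8 is among the best known genetic causes of autism in people. At E12.5 most cells of the neocortical wall are dividing radial glia that line the ventricle and have begun to produce the earliest neurons. Blood vessels grow into this wall from the vessel plexus at its surface during the same days, led by endothelial tip cells that respond to VEGF through the receptor KDR.

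The deleted exon and the exon behind it are printed here because they set what the counts can show. Exon 3 of the transcript Chd8-201 has 386 bases and lies on the minus strand of GRCm38 at chr14:52232545-52232930, inside the coding sequence. Its length is not a multiple of 3. Joined directly to exon 2, exon 4 (chr14:52231438-52231552) is read in another frame and meets a stop codon, in capitals, after 36 of its 115 bases, which leaves an open frame of 419 amino acids against 2582 in the whole transcript.
Chd8 exon 3, first 300 bases: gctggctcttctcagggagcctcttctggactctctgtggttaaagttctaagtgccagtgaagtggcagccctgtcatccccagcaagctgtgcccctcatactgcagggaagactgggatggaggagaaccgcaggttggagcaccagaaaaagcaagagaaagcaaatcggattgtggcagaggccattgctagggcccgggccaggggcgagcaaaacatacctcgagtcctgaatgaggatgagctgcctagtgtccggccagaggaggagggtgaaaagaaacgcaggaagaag
Chd8 exon 4: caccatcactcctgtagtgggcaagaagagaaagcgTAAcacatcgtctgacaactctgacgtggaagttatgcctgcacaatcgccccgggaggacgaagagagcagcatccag
Exon 3 makes up 2.40% of the 16097 bases on which Chd8 was counted. RNA from the mutant allele that was not degraded would therefore still be counted over nearly the whole gene, and the deposited values do not separate the alleles.

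Between 38774591 and 50452472 read counts fell on genes in each E12.5 library. Xist was high and the Y genes were near 0 in 1 library of each genotype (Chd8+/+ replicate 3 and Chd8+/- replicate 1), so the proportion of the sexes did not differ between the genotypes. Chd8+/- replicate 2 stood apart from the other 5 libraries in markers of neighboring tissue. Summed over the list of diencephalon markers, it had 337 CPM (read counts scaled to library size) against 119 to 139 CPM in the others. Tcf7l2, a thalamic transcription factor, was at 158 CPM there and at 24.1 to 30.1 CPM elsewhere, and Shox2 was at 25.2 CPM against 0.311 to 0.563 CPM. Its meningeal markers summed to 1177 CPM against 602 to 883 CPM. The lists of endothelium, basement membrane, platelets, pericytes, erythroid cells, meninges, diencephalon and ventral telencephalon are therefore also given without this library.

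**Figure D1:**
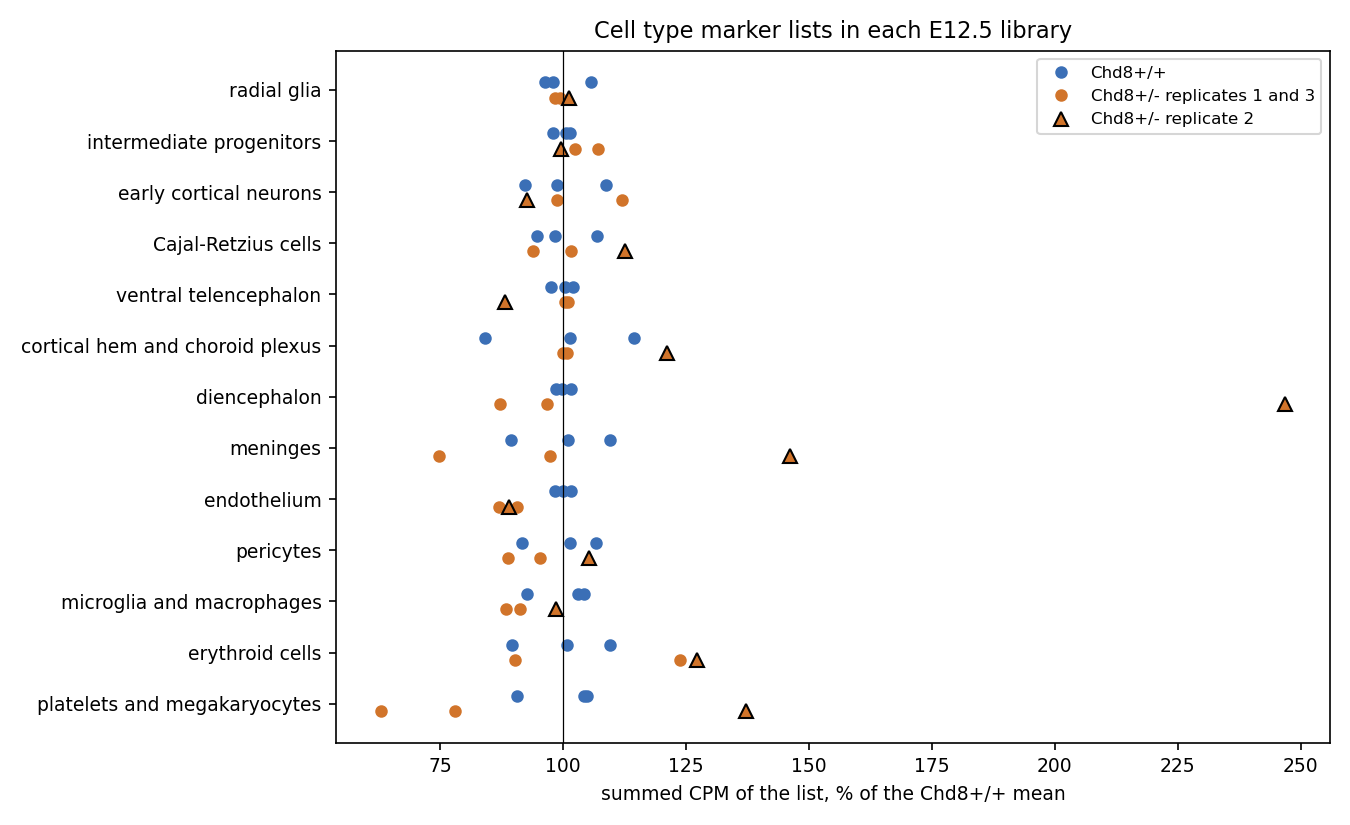
Summed CPM of each marker list in the 6 E12.5 libraries, as a percentage of the Chd8+/+ mean (horizontal axis), with Chd8+/- replicate 2 drawn as a triangle. This replicate lies at 247% for diencephalon and 146% for meninges, and the endothelium list is the only plotted row in which all Chd8+/- libraries, at 87.0 to 90.7%, lie below all Chd8+/+ libraries.

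Chd8 itself was lower in every heterozygous library. Its level was 236, 233 and 238 CPM in the Chd8+/+ libraries and 164, 169 and 164 CPM in the Chd8+/- libraries, so that the genotypes were far apart and each group varied little. The log2 fold change was -0.51 (standard error 0.0394, edgeR adjusted p = 0.00562), which is 70.3% of the Chd8+/+ level with a 95% confidence interval of 66.1 to 74.8%. Of 17 genes tested within 500 kb of Chd8, 0 had an unadjusted p under 0.05 in edgeR, and their median log2 fold change was 0.02. The 2 genes that overlap Chd8, Gm26590 and Snord8, together had at most 33 counts in any E12.5 library.

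Chd8 was the only gene of 18081 to pass edgeR's adjusted p of 0.05 (0.00553% of the genes tested). Leaving out single libraries kept its log2 fold change between -0.52 and -0.50, but its adjusted p was above 0.05 without Chd8+/+ replicate 3, Chd8+/- replicate 1 or Chd8+/- replicate 3 and reached 0.141. It was also above 0.05 with a term for sex (0.0527) and with the replicate number as a block (0.346), at the same log2 fold change of -0.51. At an unadjusted p under 0.05, 932 genes (5.15%) differed, 418 higher (2.31%) and 514 lower (2.84%) in Chd8+/-. The 3 values of a genotype did not overlap those of the other at 11.3% of genes, with 5.45% higher and 5.90% lower. These shares are the background for the counts that follow.

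**Figure D2:**
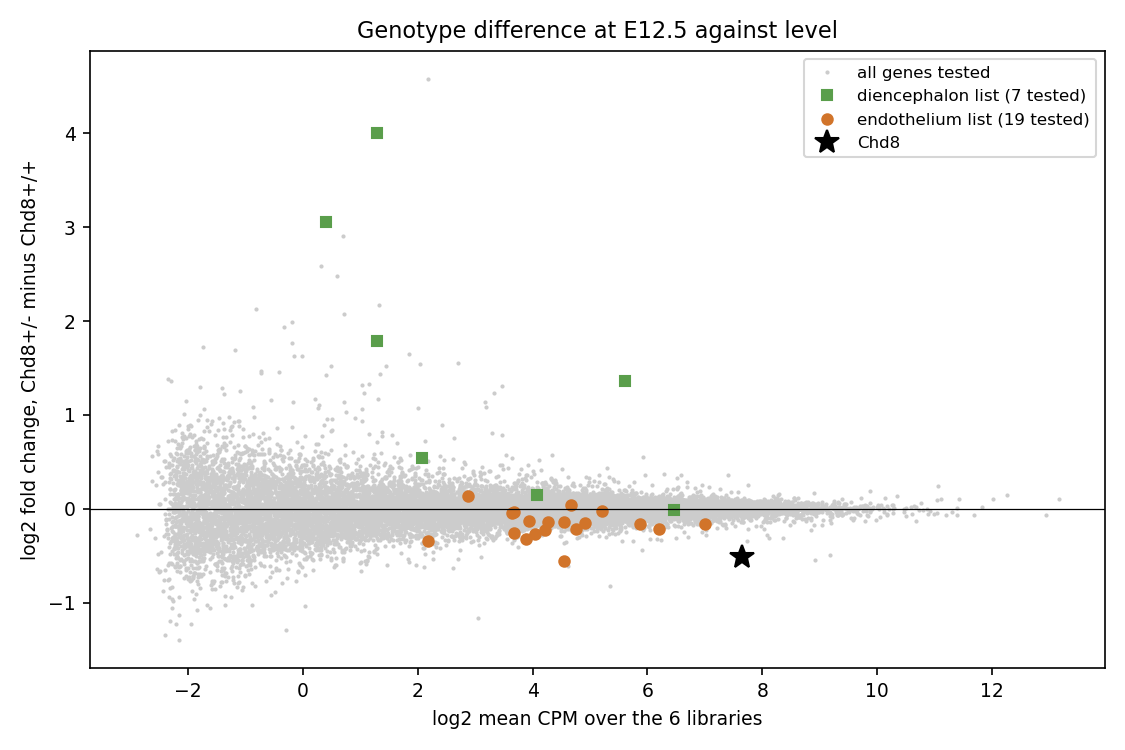
Log2 fold change of Chd8+/- against Chd8+/+ at E12.5 (vertical axis) against log2 mean CPM (horizontal axis) for the 18081 genes tested. Chd8 (star, -0.51) lies clear of genes of like level, 17 of 19 endothelial genes (circles) lie below 0, and the diencephalic genes far above 0 (squares) are those raised in Chd8+/- replicate 2.

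DESeq2 called 4 further genes at an adjusted p under 0.05, and with Chd8 these were 5 of the 13360 genes past its filter (0.0374%). Zcwpw1, which encodes a reader of histone methylation best known from meiosis, had 9.12, 10 and 8.69 CPM in Chd8+/+ and 13.1, 13.2 and 15.1 CPM in Chd8+/- libraries. Its Chd8+/- values all lay above the Chd8+/+ values (DESeq2 adjusted p = 8.55e-04, edgeR adjusted p = 0.541). Tmem209, a transmembrane protein of the nuclear envelope, had 82.4, 85.5 and 82.8 CPM against 104, 113 and 105 CPM, again without overlap. Its log2 fold change of 0.36 (standard error 0.0464) passed DESeq2 (adjusted p = 1.25e-05) in the full set and in all 6 fits that left out a library.
Sfxn1, a mitochondrial serine transporter that feeds single-carbon metabolism, had 105, 108 and 110 CPM in Chd8+/+ and 90.4, 89.5 and 91.3 CPM in Chd8+/- libraries. The spread within each genotype was small beside the difference of -0.25 on the log2 scale (standard error 0.0398, DESeq2 adjusted p = 0.0228). Vwf, the clotting factor stored by endothelial cells and platelets, had 31.1, 22.7 and 30.0 CPM against 16.7, 21.8 and 18.7 CPM. The highest Chd8+/- value came within 1 CPM of the lowest Chd8+/+ value, and the log2 fold change was -0.55 (standard error 0.130, DESeq2 adjusted p = 0.0285, edgeR adjusted p = 0.924). Sfxn1 and Vwf were each called by DESeq2 in 2 of 6 fits that left out a library, and Zcwpw1 in 3.

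**Figure D3:**
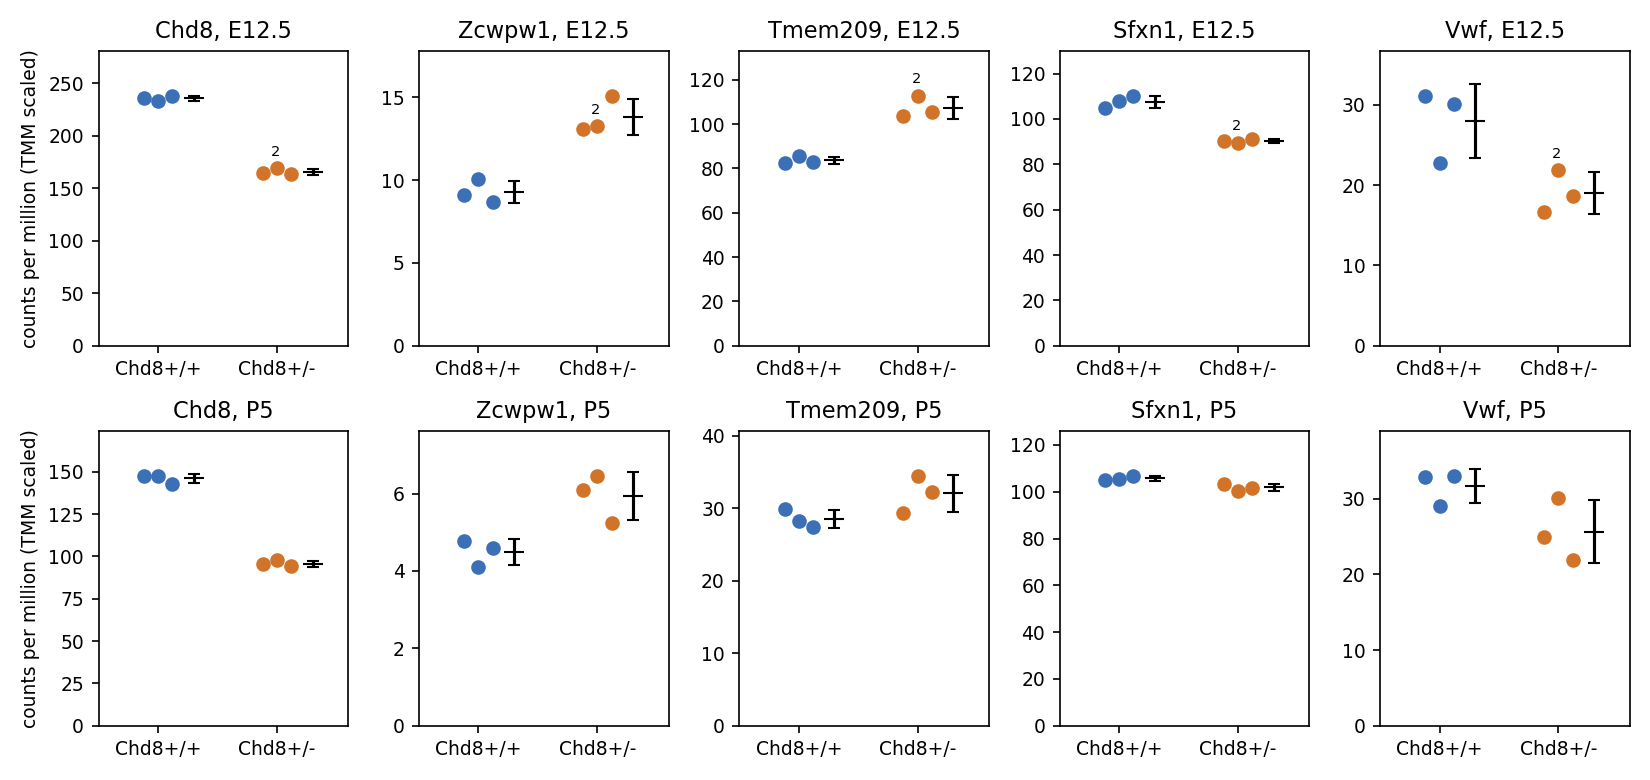
Level of the 5 genes called by DESeq2 at E12.5, in CPM, in each library at E12.5 (top) and P5 (bottom). Points are libraries, bars are mean and SD of 3, and 2 marks Chd8+/- replicate 2. The genotypes do not overlap for any of the 5 genes at E12.5, whereas at P5 Tmem209 and Vwf overlap.

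The genes with the smallest edgeR p and no overlap between genotypes, at a mean of at least 1 CPM, were taken as 10 higher and 10 lower genes. These included Chd8 and 3 of the 4 genes above, and Vwf was added as the fourth. This gave 10 higher and 10 lower genes besides Chd8, and their E12.5 differences chose them, so they are described and not tested. Among the 10 higher genes, Smug1, a DNA glycosylase that removes uracil, had 27.9, 29.1 and 28.2 CPM in Chd8+/+ and 33.2, 34.5 and 33.9 CPM in Chd8+/- libraries. Nat9, an acetyltransferase gene, had 6.66, 6.85 and 6.75 CPM against 8.42, 9.37 and 8.59 CPM. Krt10 (log2 fold change 0.48), BC025920 (0.52), Efcab7 (0.42) and Rmdn2 (0.54) had log2 fold changes of like size, and Rnf17, near 1 CPM, had the largest of them (0.96).
Sema3c, which encodes a secreted guidance cue of the semaphorin family, had 20.3, 24.0 and 20.5 CPM against 26.6, 28.6 and 26.6 CPM.
Among the 10 lower genes, 3 belong to blood vessels or their basement membrane beside Vwf (Kdr, Col4a2 and Lamc3), and these are taken up with their lists. Usp11, an X-linked ubiquitin protease, had 135, 133 and 134 CPM in Chd8+/+ and 115, 123 and 113 CPM in Chd8+/- libraries. Scn2b, an auxiliary sodium channel subunit, had 7.46, 7.93 and 7.59 CPM against 4.90, 6.02 and 4.98 CPM. The others were Cpt1a, the enzyme that admits fatty acids to mitochondria (log2 fold change -0.26), Pnma2 (-0.31) and the noncoding Gm13404 (-0.62).

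The P5 libraries were then asked for the same differences. Of the 20 genes, 17 had the same sign at P5, and 11 had the same sign with an unadjusted p under 0.05 in edgeR, where 17.8% of all genes had such a p in either direction. By direction these were 6 of the 10 higher genes (8% of all genes at P5) and 5 of the 10 lower genes (9.77%). Smug1 had the lowest p (log2 fold change 0.27 at P5, unadjusted p = 2.58e-04 and adjusted p = 0.0950 in edgeR), followed by Usp11 (-0.14, unadjusted p = 9.42e-04). Zcwpw1 (0.40), Nat9 (0.36), Rnf17 (0.53), Rmdn2 (0.25) and Tmem209 (0.17) were also higher at P5, and Kdr (-0.36), Col4a2 (-0.18), Scn2b (-0.15) and Vwf (-0.31) also lower. None of the 20 passed an adjusted p of 0.05 in edgeR at P5, where Chd8 alone did (0.00536% of genes, log2 fold change -0.61). DESeq2, which called 5.28% of genes at P5, called 6 of the 20 in the E12.5 direction (Smug1, Nat9, Kdr, Col4a2, Usp11 and Vwf). The count of 11 was 7 without P5 Chd8+/- replicate 3, which differed most from its own group, and 7 without P5 Chd8+/+ replicate 2.

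Sema3c differed in sign between the stages. At P5 it had 40.1, 43.7 and 39.3 CPM in Chd8+/+ and 32.0, 37.7 and 34.2 CPM in Chd8+/- libraries, so that the genotypes were again separate but in the other order. Its log2 fold changes were 0.34 at E12.5 (standard error 0.0760) and -0.24 at P5 (standard error 0.0655), each from the fit of its own stage. In a fit over all 12 libraries the difference between stages was -0.60 (standard error 0.109). Sema3c was chosen for its E12.5 difference, which this genotype-by-stage term uses again, so the difference is a description with no test. By edgeR 0 of 19676 genes passed for this term, while 1972 genes (10%) had an unadjusted p under 0.05 and DESeq2 called 8. Sema3c was among those 8, a call that rests on the same E12.5 values that chose it. Lamc3 and Pnma2 were the other 2 of the 20 genes whose sign differed at P5, with log2 fold changes of 0.07 and 0.01.

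Most endothelial markers had lower values in Chd8+/- cortex. Of 19 endothelial markers, all tested, 17 had lower values, 11 of them with an unadjusted p under 0.05 in edgeR (2.84% of all genes), and 0 were higher at that p. At 12 of the 19 every Chd8+/- value lay below every Chd8+/+ value (5.90% of all genes). The median log2 fold change of the list was -0.16, beside 0.00 over all genes, and none of the 19 passed an adjusted p of 0.05 in edgeR, while DESeq2 called Vwf. The summed level was 603, 584 and 594 CPM in Chd8+/+ and 517, 529 and 539 CPM in Chd8+/- libraries, so that the genotypes did not overlap in the sum either. In tissue, fewer endothelial cells and less of these RNAs per cell cannot be told apart.

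Several receptors were among these genes. Kdr, the main VEGF receptor, had 77.5, 80.2 and 78.7 CPM in Chd8+/+ and 68.3, 68.0 and 67.9 CPM in Chd8+/- libraries (log2 fold change -0.21, standard error 0.0428). The values within a genotype lay within 3 CPM of each other. Tie1, an orphan receptor of the angiopoietin system, had 32.1, 31.6 and 31.0 CPM against 27.5, 28.4 and 29.1 CPM, and its partner Tek had a log2 fold change of -0.14 with overlapping values. Ptprb, the phosphatase that restrains Tek, had 17.5, 15.7 and 15.9 CPM against 13.2, 13.7 and 12.5 CPM (log2 fold change -0.32). Eng, a coreceptor for BMP ligands (-0.22), and Robo4 (-0.25) also had separate values, whereas those of the VEGF receptor Flt1 (-0.14) overlapped.
Among junction and surface proteins, the cadherin Cdh5 had 61.7, 61.2 and 61.2 CPM against 51.8, 55.6 and 57.3 CPM (log2 fold change -0.16). Plvap, of the diaphragms of leaky vessels, had 17.3, 17.2 and 19.5 CPM against 15.4, 15.3 and 14.1 CPM. The glucose transporter Slc2a1, also expressed by neural and red blood cells, had 135, 136 and 137 CPM against 124, 115 and 125 CPM. The transcription factor Sox17 had a log2 fold change of -0.34 and the secreted Egfl7 of -0.23.
Other endothelial markers overlapped between genotypes. Pecam1, a junction protein of all endothelial cells, had 37.7, 37.5 and 37.2 CPM in Chd8+/+ and 35.4, 35.9 and 39.2 CPM in Chd8+/- libraries, and its 95% interval for the log2 fold change ran from -0.15 to 0.11. The tight junction gene Cldn5 (-0.04), Emcn (-0.04), the lipid transporter Mfsd2a (0.04) and Erg (0.14) also had overlapping values. The list included Vwf, which the study called in these same libraries, so Vwf is not independent evidence of its direction.

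**Figure D4:**
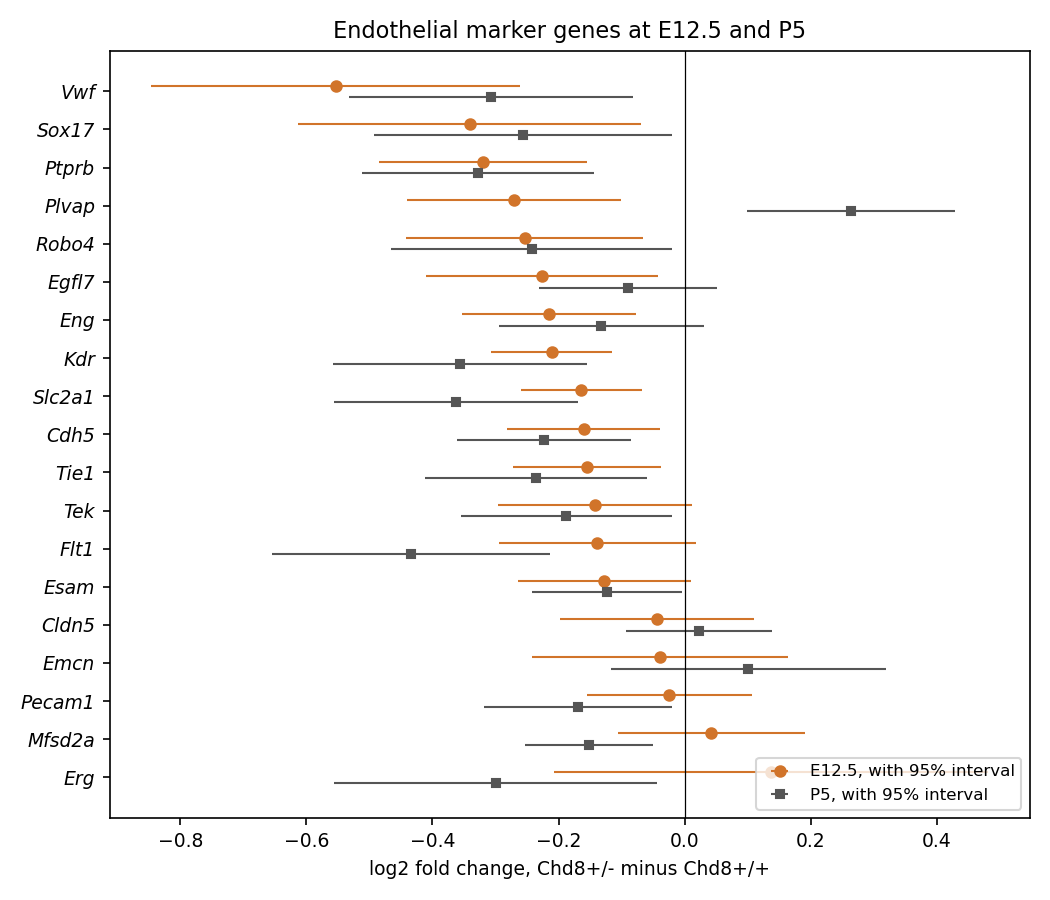
Log2 fold change of Chd8+/- against Chd8+/+ (horizontal axis) for the 19 endothelial markers at E12.5 (circles) and P5 (squares), with 95% intervals from edgeR. The markers with the largest differences at E12.5 have intervals wholly below 0, and Plvap is higher at P5, where most others are lower.

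The endothelial count depended on the libraries used. Without Chd8+/- replicate 2 the list had 12 genes lower at an unadjusted p under 0.05 in edgeR and a median of -0.17. Leaving out Chd8+/- replicate 1 brought the count to 6 and the median to -0.13, the smallest of the fits that left out a library, and sequencing run 2 alone gave 7. At P5, 16 of the 19 had lower values, 14 with an unadjusted p under 0.05 in edgeR (9.77% of all genes at P5), and the median was -0.22. Other lists had lower values at P5 as well. All 16 ventral telencephalic genes had lower values there, 7 at that p (median -0.26), as were 13 of 15 genes of cortical hem and choroid plexus, 8 at that p (median -0.55). The ventral count was 3 when P5 Chd8+/- replicate 1 was left out, with 14 of 16 lower and a median of -0.15, and 4 when P5 Chd8+/+ replicate 1 or 2 was. The hem and choroid plexus count with libraries left out is not reported here. Without P5 Chd8+/- replicate 3 or P5 Chd8+/+ replicate 1 the endothelial count was 7, and without P5 Chd8+/- replicate 1 it was 9. The P5 log2 fold changes were -0.43 for Flt1, -0.36 for Kdr and -0.36 for Slc2a1. Plvap differed in sign, at 0.26 (unadjusted p = 0.00503 in edgeR).

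The promoters of Kdr and Tie1 are shown as examples of the 12 list members with an entry in the RefSeq promoter table (GRCm38.p6, 250 bases before to 50 after the start). Both are on the minus strand, Kdr at chr5:75978406-75978705 and Tie1 at chr4:118489800-118490099. Capitals mark GGAA, the core letters bound by ETS factors, on either strand (TTCC on the printed one). The Kdr window holds 5 matches and that of Tie1 holds 9, the most among the 16 promoters of these 12 genes, which hold 0 to 9 with a median of 4. Slc2a1 and Cldn5 hold 0. Over all promoters in the table the median is 3, and 96.0% hold at least 1. Both printed promoters were chosen after the genes' values were seen. This describes the letters only, since binding was not measured.
Kdr: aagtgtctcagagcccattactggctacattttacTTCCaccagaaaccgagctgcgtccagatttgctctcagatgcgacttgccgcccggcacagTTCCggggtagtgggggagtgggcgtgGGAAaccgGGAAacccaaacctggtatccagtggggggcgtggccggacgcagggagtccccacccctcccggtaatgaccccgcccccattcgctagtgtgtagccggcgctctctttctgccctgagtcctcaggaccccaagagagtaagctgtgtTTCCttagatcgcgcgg
Tie1: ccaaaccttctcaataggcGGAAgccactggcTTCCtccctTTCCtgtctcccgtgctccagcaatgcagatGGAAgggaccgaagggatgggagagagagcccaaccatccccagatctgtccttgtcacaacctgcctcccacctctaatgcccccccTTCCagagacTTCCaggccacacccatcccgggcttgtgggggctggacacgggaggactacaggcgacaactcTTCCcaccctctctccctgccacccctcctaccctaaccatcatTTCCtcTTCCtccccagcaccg

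Further vascular genes were looked at in 3 lists that were written after the endothelial values were seen, and support nothing by themselves. In a second list of 34 endothelial genes with no member of the first, 27 had lower values, 11 with an unadjusted p under 0.05 in edgeR (2.84% of all genes). At 15 the values were lower without overlap (5.90% of all genes), and the list's median was -0.13. The lower genes included Mmrn2 (-0.27), Fgd5 (-0.18), Rasip1 (-0.20), the apelin receptor Aplnr (-0.17), Nos3 (-0.22) and the ETS factor Ets1 (-0.13). Apln, the ligand of Aplnr and a tip cell gene, was the 1 gene higher at that p, at 11.4, 9.88 and 10.3 CPM against 11.7, 12 and 12.2 CPM. DESeq2 put 5 of the 34 lower at that p, while edgeR put 4 lower when Chd8+/- replicate 1 was left out. It put 5 lower when Chd8+/+ replicate 1 was left out, and 6 when replicate 3 of either genotype was. Leaving out Chd8+/- replicate 2 gave 9. At P5, 24 of the 34 had lower values, 8 with an unadjusted p under 0.05 in edgeR (9.77% of all genes at P5). This P5 count was 4 when Chd8+/+ replicate 1 or Chd8+/- replicate 3 was left out and 15 when Chd8+/- replicate 2 was.
Genes of the vessel basement membrane also had lower values. All 14 of its genes had log2 fold changes below 0, with a median of -0.10. Of these, 3 had an unadjusted p under 0.05 in edgeR (2.84% of all genes). With a library left out, 11 to 14 were below 0, and 5 had such a p without Chd8+/+ replicate 2 or Chd8+/- replicate 2. When Chd8+/- replicate 1 was left out, 2 had such a p and the median was -0.05. Col4a1, which with Col4a2 forms the type IV collagen of this membrane, had 387, 374 and 368 CPM in Chd8+/+ and 314, 341 and 349 CPM in Chd8+/- libraries. Col4a2, encoded beside it, had 235, 229 and 232 CPM against 191, 206 and 203 CPM. Lamc3, a laminin chain, had 25.7, 26.3 and 27.2 CPM against 21.9, 18.9 and 20.8 CPM. Fn1 (log2 fold change 0.00) and Sparc (-0.01) had overlapping values. The sum of the list also overlapped, at 2742, 2425 and 2656 CPM in Chd8+/+ and 2271, 2622 and 2439 CPM in Chd8+/- libraries. Col4a2 and Lamc3 had been seen among the lower genes when the list was written.
Genes of platelets and their precursors summed to 105, 105 and 91.2 CPM in Chd8+/+ and 63.4, 138 and 78.4 CPM in Chd8+/- libraries. The sum was thus below every Chd8+/+ library in 2 Chd8+/- libraries and above every one in Chd8+/- replicate 2. Of 18 genes, 15 had lower values, 8 with an unadjusted p under 0.05 in edgeR (2.84% of all genes), and the median was -0.47. Gp9, of the receptor for von Willebrand factor, had 1.07, 1.41 and 1.02 CPM against 0.415, 0.566 and 0.438 CPM, and Itga2b, the integrin of platelets, had 8.03, 7.65 and 6.64 CPM against 3.97, 6.02 and 4.38 CPM. Chd8+/- replicate 2 was the highest of its genotype for both, and for Itgb3 it had 10.1 CPM, within the Chd8+/+ range of 8.25 to 11.7 CPM. Without it, 14 of the 18 were lower at that p and the median was -0.73. Without Chd8+/+ replicate 1, Chd8+/+ replicate 2, Chd8+/- replicate 1 or Chd8+/- replicate 3 the count was 4. At P5, 10 of the genes were tested, 5 had lower values and 0 had an unadjusted p under 0.05.

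Markers of cells that accompany vessels overlapped between genotypes in their sums. Of 9 pericyte markers 0 had an unadjusted p under 0.05 in edgeR in either direction, with a median of -0.04, and their sum was 280 to 326 CPM in Chd8+/+ and 271 to 321 CPM in Chd8+/- libraries. Without Chd8+/- replicate 2 the pericyte median was -0.11, with 1 gene lower at that p, and over the fits that left out a library it ran from -0.11 to 0.02. Of 13 genes of microglia and macrophages 11 had lower values and 0 had such a p, with a median of -0.08 (median standard error 0.155). Their sums were 62.7 to 70.5 CPM against 59.8 to 66.7 CPM. The 11 erythroid genes had a median of 0.25, 0 with such a p, and sums of 3305 to 4038 CPM against 3327 to 4693 CPM. When Chd8+/- replicate 1 was left out, 6 of the 11 were higher at that p and the median was 0.38. When Chd8+/- replicate 2 was left out, 1 was higher and 1 lower and the median was 0.06. It was 0.15 without Chd8+/+ replicate 2 and 0.14 without Chd8+/- replicate 3. Meningeal genes had a median of 0.15, which was -0.17 without Chd8+/- replicate 2. Leaving out Chd8+/- replicate 1 gave 0.36, leaving out Chd8+/+ replicate 2 gave 0.07, and leaving out Chd8+/- replicate 3 gave 0.08. The part of these cell types in the endothelial difference was not tested.

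Markers of the neural lineage were read against the 5.15% of all genes with an unadjusted p under 0.05. Of 14 radial glia markers 0 had an unadjusted p under 0.05 in edgeR, and the median was 0.00. Pax6, a transcription factor of these cells, had 161, 148 and 154 CPM in Chd8+/+ and 165, 166 and 158 CPM in Chd8+/- libraries, with overlap. Among 10 markers of intermediate progenitors, the cells that divide once more to give neurons, 2 were higher at that p (2.31% of all genes) and 3 had no overlap in that direction (5.45%). Neurog2, a proneural factor, had 104, 103 and 106 CPM against 119, 111 and 113 CPM (log2 fold change 0.13, edgeR adjusted p = 0.942). Insm1, which promotes delamination of these cells, had 70.5, 67.2 and 72.9 CPM against 76.9, 78.6 and 75.8 CPM (0.14). Eomes, their defining factor, overlapped between genotypes (-0.05). At P5 the log2 fold changes of Neurog2 and Insm1 were -0.46 and -0.25.
Of 14 markers of early cortical neurons 0 had such a p, with a median of 0.02. Tubb3 had 1022, 1258 and 1138 CPM in Chd8+/+ and 1277, 1120 and 1094 CPM in Chd8+/- libraries, and Dcx had a log2 fold change of 0.00. Among 10 genes of Cajal-Retzius cells, the first neurons of the cortical surface, Cacna2d2 was lower at that p (-0.20).
Of 16 ventral telencephalic genes, Lhx6 (-0.35), Lhx8 (-0.23) and Gad1 (-0.19) were lower at an unadjusted p under 0.05. Lhx6 had 57.9, 53.5 and 68.7 CPM in Chd8+/+ and 51.7, 37.7 and 52.2 CPM in Chd8+/- libraries, the lowest in replicate 2. Without that library 1 of the 16 was lower at that p, and the median moved from -0.02 to 0.05. The count was 1 without Chd8+/+ replicate 1 and 0 without Chd8+/+ replicate 3. In the diencephalic list 3 of 7 genes were higher at that p with all libraries and 0 without Chd8+/- replicate 2 or Chd8+/+ replicate 1.

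Known functions of CHD8 were followed in lists of its partners and targets. Among 9 CHD remodelers, Chd3 was lower beside Chd8, with 564, 549 and 555 CPM in Chd8+/+ and 514, 481 and 490 CPM in Chd8+/- libraries (log2 fold change -0.17, edgeR unadjusted p = 0.00829 and adjusted p = 0.942). Chd3 was lower at P5 as well (-0.14, unadjusted p = 0.00137 in edgeR). The other 7, among them Chd4 at 692 to 805 CPM in Chd8+/+, had an unadjusted p above 0.05. In the H3K4 methyltransferase core with CHD8's partners 0 of 12 had an unadjusted p under 0.05, in the Polycomb complex PRC2 0 of 11, and in the BAF remodeling complex 0 of 24, with medians of -0.02, -0.01 and -0.01.
CHD8 is known as a regulator of Wnt and p53 targets. Of 18 Wnt and β-catenin targets, Tcf7 alone had an unadjusted p under 0.05 in edgeR, with 11.1, 9.48 and 11.9 CPM against 8.58, 8.78 and 8.88 CPM. The median of this list was 0.04, and Ctnnb1 itself had a log2 fold change of 0.01. Of 17 p53 genes 0 had such a p, with a median of 0.06. Among 20 genes of REST and its targets, Vgf was higher (0.78, at 0.662 to 1.5 CPM) and Celsr3 lower (-0.18).

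Cell cycle genes had small differences. Of 20 mitotic genes and 22 genes of G1/S and DNA replication, 0 had an unadjusted p under 0.05 in edgeR, and log2 fold changes ran from -0.04 to 0.04 and from -0.04 to 0.10. Mki67 had 887, 882 and 926 CPM in Chd8+/+ and 913, 902 and 931 CPM in Chd8+/- libraries, with a 95% interval of -0.09 to 0.14 for its log2 fold change. Top2a had an interval of -0.11 to 0.15. The 79 cytosolic ribosomal protein genes had a median of -0.01 and 0 with such a p, the 15 Notch pathway genes a median of -0.02 and 0, and the 14 FGF receptor and ERK feedback genes a median of -0.02 and 0.

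Guidance, adhesion and autism risk genes had shares near or above the 5.15% of all genes. Among 45 axon guidance genes tested, Sema3c and Sema3a (0.18) were higher and Robo3 (-0.33) lower at an unadjusted p under 0.05 in edgeR, and the median was -0.01. Robo3, a receptor of crossing axons, had 108, 74.3 and 69.7 CPM in Chd8+/+ and 60.7, 69.0 and 70.9 CPM in Chd8+/- libraries, with Chd8+/+ replicate 1 far above the other 5. Among 33 cadherins and protocadherins Cdh9 and Cdh1, at 2.67 CPM or less, were higher and the planar polarity cadherin Celsr3 was lower, at 180, 168 and 161 CPM against 160, 150 and 139 CPM. Over 33 high-confidence autism risk genes the median was 0.00, and Shank3 (-0.14) was among those lower at that p, at 35.1, 31.9 and 32.5 CPM in Chd8+/+ and 31.4, 30.3 and 28.4 CPM in Chd8+/- libraries.
Among 17 genes of hypoxia and glycolysis 3 were lower at that p (2.84% of all genes) and 5 were lower without overlap (5.90%). Besides Slc2a1 these were Ldha, with 470, 494 and 482 CPM in Chd8+/+ and 430, 446 and 451 CPM in Chd8+/- libraries, and Pfkl (-0.13). The list's median was -0.05. Among 13 immediate early genes tested, Egr1 was lower at that p, at 5.32, 5.94 and 5.44 CPM against 5.00, 3.44 and 4.61 CPM.

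**Figure D5:**
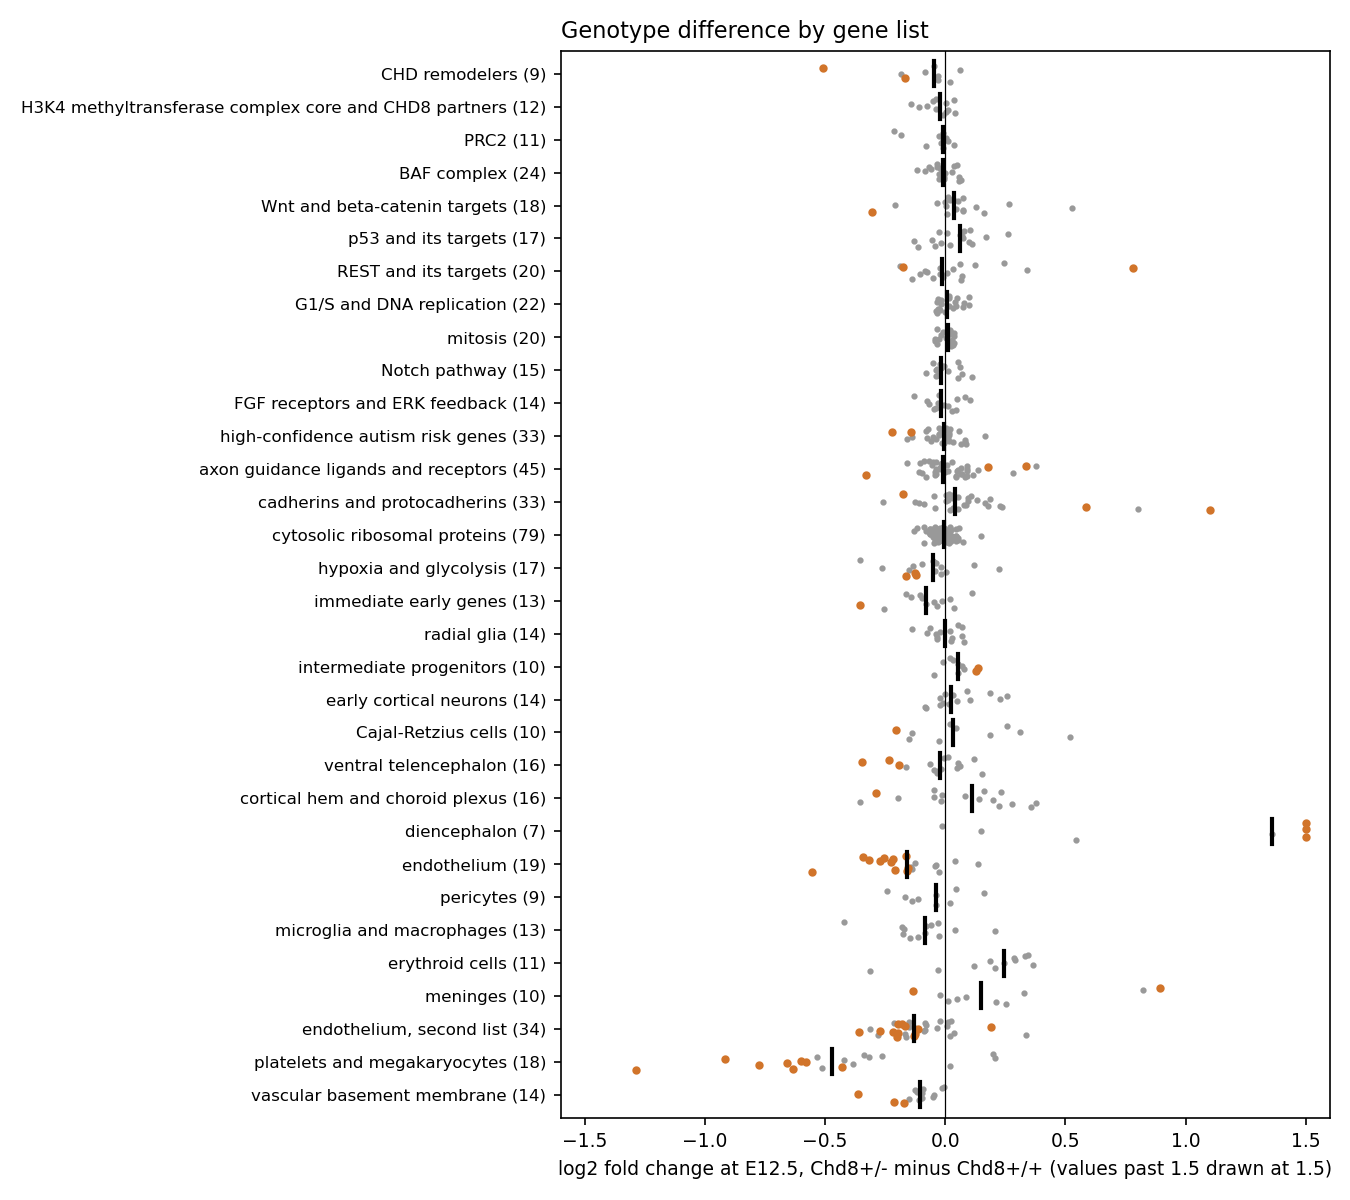
Log2 fold change at E12.5 (horizontal axis) of each tested member of each list, with the number tested in brackets. Orange points have an unadjusted p under 0.05 in edgeR and bars are list medians, with values past 1.5 drawn at 1.5. Orange points gather below 0 in the endothelium lists (medians -0.16 and -0.13) and the platelet list (-0.47), and the bottom 3 lists were added after values were seen.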

How the data were processed

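RNA from E12.5 neocortex was sequenced as paired ends from dUTP libraries. According to the paper's methods and the submitters' processing notes, the authors checked reads with FastQC 0.11.2, trimmed them with Trim Galore 0.4.1, aligned them to GRCm38.p4 with TopHat2 2.1.0 and counted them with featureCounts 1.5.0. The deposited values are raw counts per gene and run, without normalization, filter or pooling. The counting command recorded for P5 sets no strand and none is recorded for E12.5, so reads of genes overlapping on opposite strands cannot be separated.

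The 2 runs of each library, which differed by 1.23 to 1.55 in chi-squared per degree of freedom against 10.0 to 18.1 between E12.5 libraries of a genotype, were summed. Of 46603 genes, 18081 passed filterByExpr and were tested with edgeR 4.0.16 (R 4.3.3, TMM scaling, quasi-likelihood test, two-sided, Benjamini-Hochberg adjustment, threshold 0.05). CPM use TMM library sizes. DESeq2 1.42.0 and limma-voom (limma 3.58.1) were alternatives, with other scalings and filters, a sex term from Xist and Y genes, a length offset, single runs, all 12 libraries, a replicate block and each library left out. On simulated E12.5 counts of 18081 genes, edgeR found 87 of 100 log2 changes of 0.5 and 100 of 100 changes of 1 with 17 false calls, and DESeq2 found 92 and 100 with 35 false calls. The changed genes were drawn only from well expressed genes, and both sizes were planted together. So many true changes make the adjusted threshold easier to pass than in the real counts, so these shares are not the power of this comparison. For both tools the false calls were a larger share of all calls than 0.05. Depth was 38774591 to 50452472 counts per library, and the spread between the 3 libraries of a genotype exceeded that between runs and limits the precision.

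Named genes were Chd8, the 4 others the study called, the 10 higher and 10 lower genes (Chd8 among the latter) with the smallest edgeR p and no overlap at 1 CPM or more, and in each list the member with the smallest p and the 2 highest per kilobase. Single further members are named to show a list's range, chosen after their values were seen. Members and lists were chosen with earlier results of these data known. Figures were drawn with matplotlib 3.10.9 (Python 3.11.15, pandas 2.3.3). Exons are from GENCODE and promoters from RefSeq, both on GRCm38. Some genes of these lists are not reported here.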

Additional observations from a re-analysis of the deposited data

How the results depend on the processing

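The number of genes called by edgeR was 1. It was 5 with DESeq2 with or without its prior, 13 without a filter on low counts, 2 with all 12 libraries, and 0 with the term for sex and with the replicate number as a block. With each library left out it ranged from 0 to 2 in edgeR, and in DESeq2 it was 5, 18 and 4 without Chd8+/+ replicates 1, 2 and 3 and 13, 12 and 3 without the same of Chd8+/-. Genes with an unadjusted p under 0.05 numbered 621 with DESeq2, 599 with its prior, 606 with the replicate block and 1903 at a threshold of 0.1, from 690 to 1190 with a library left out of edgeR, and 364, 563, 589 and 466 in DESeq2 without Chd8+/+ replicate 1, Chd8+/+ replicate 3, Chd8+/- replicate 2 and Chd8+/- replicate 3.
The log2 fold change of Chd8 was -0.51 with the block (adjusted p = 0.346 in edgeR) and with the term for sex (-0.51, adjusted p = 0.0527), and -0.52 to -0.50 with a library left out. Same-numbered E12.5 libraries did not vary together (correlations of deviations -0.31, -0.14 and -0.16), and the main fit did not pair them. At P5 the same correlations were 0.25, 0.11 and 0.03. Such correlations, from 3 libraries a genotype, cannot exclude a shared litter or batch.
The count of 11 lower endothelial genes was 7 with run 2 alone, 7 and 6 in DESeq2 without Chd8+/+ replicate 1 or Chd8+/- replicate 1, 10 with the replicate block and 6 to 12 with a library left out of edgeR, and the median ranged from -0.19 to -0.13. The 11 of 20 genes seen at P5 were 12 with the block, 7 to 12 with a library left out, and 7 in DESeq2 without P5 Chd8+/+ replicate 2 or P5 Chd8+/- replicate 3. DESeq2 with a library left out and the 3 added lists were chosen after seeing the data. The causes were not tested. For named genes other than Chd8 under these alternatives, 2504 values stayed on the same side of the threshold within their error. A further 120 moved, and 31 passed a threshold that the main value missed. None of these genes was called in the main fit, so this count could not show the loss or reversal of a call. With 3 libraries a genotype and a biological coefficient of variation of 9.18%, differences the size of most list medians were below what single genes could show.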

Other observations

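Gm6969, a processed pseudogene on chromosome 12, had 10.4, 12.5 and 11.4 CPM in the Chd8+/+ libraries and 2.51, 11 and 1.75 CPM in the Chd8+/- libraries, and was called by edgeR beside Chd8 when Chd8+/- replicate 2 was left out. Reads of a processed pseudogene can be split with its parent gene, so its level is uncertain. Sgip1, an endocytic adaptor of neurons, had 19.7, 35.3 and 33.6 CPM in Chd8+/+ and 20.2, 18.7 and 18.9 CPM in Chd8+/- libraries, and was called by edgeR without Chd8+/+ replicate 1. Draxin, a secreted guidance protein and Wnt antagonist, had 63.4, 77.4 and 64.1 CPM in Chd8+/+ and 97.3, 82.5 and 84.3 CPM in Chd8+/- libraries, with an edgeR adjusted p of 0.924 and an unadjusted p of 0.00246. These 3 genes were singled out after their values were seen.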
